A study of Homo sapiens with 4 samples.

Results

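TXNIP, its alpha-arrestin relatives ARRDC1, ARRDC2, ARRDC3 and ARRDC4, the transcription factors MLX, MLXIP (MondoA) and MLXIPL (ChREBP), and their reported target KLF10 were followed in HEK293 cells, an established line from human embryonic kidney. These 9 genes were taken by symbol, and every probe set that the platform annotation assigns to a single one of them was kept, which gave 20 of the 54675 probe sets on the array. A probe set is a group of short array probes read as 1 signal for a transcript. High glucose cells spent 7 days in DMEM at 450 mg/dl glucose, and low glucose cells spent as long in DMEM at 100 mg/dl. The medium of both groups contained fetal calf serum, and each group had 2 arrays. The comparison asks how the transcript levels differ between these glucose concentrations. Per the labels the arrays are biological replicates, but the labels do not describe separate cultures, so p-values measure the spread between these samples, which may be technical.

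MondoA and ChREBP are basic helix-loop-helix factors that are activated when glucose is taken up and phosphorylated, and they bind DNA as dimers with MLX. Their binding sites, called carbohydrate response elements, consist of a pair of E-box-like sequences separated by a short spacer. TXNIP and ARRDC4 are textbook targets of MondoA, and both proteins restrain glucose uptake, so the set forms a feedback loop around glucose entry. ChREBP is best known from liver and fat, where it drives genes of sugar use and lipid synthesis.

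The DNA just before the TXNIP and ARRDC4 start sites is shown because these are the members that rose clearly, and because MondoA target sites are defined by sequence. Both stretches cover the 250 bases before the RefSeq start (GRCh38.p14), TXNIP at chr1:145996580-145996829 on the minus strand and ARRDC4 at chr15:97960453-97960702 on the plus strand. Capitals mark each match to CACGNG on either strand, a form that includes the E-box CACGTG.
TXNIP: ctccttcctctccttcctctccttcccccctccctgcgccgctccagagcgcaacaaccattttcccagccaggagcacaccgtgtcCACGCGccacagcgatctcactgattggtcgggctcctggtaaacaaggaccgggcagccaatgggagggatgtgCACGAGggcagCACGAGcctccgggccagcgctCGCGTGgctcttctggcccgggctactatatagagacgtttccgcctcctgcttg
ARRDC4: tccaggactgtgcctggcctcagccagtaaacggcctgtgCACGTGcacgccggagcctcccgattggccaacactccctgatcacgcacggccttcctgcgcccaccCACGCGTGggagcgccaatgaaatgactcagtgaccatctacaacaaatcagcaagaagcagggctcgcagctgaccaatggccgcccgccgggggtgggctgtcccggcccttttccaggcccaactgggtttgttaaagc

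The TXNIP stretch held 4 matches to CACGNG, and a pair of them lay 5 bases apart, as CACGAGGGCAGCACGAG between 88 and 72 bases before the start. This paired form, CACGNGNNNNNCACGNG searched on both strands, was present in 16 of 35116 upstream windows of the same length (0.0456%). It has the arrangement seen before TXNIP, with both matches in the same orientation and 5 bases between them. Pairs in opposite orientation or with another spacer were not searched. ARRDC4 held no pair of the searched form, which leaves other paired forms unexamined. Its stretch had the E-box CACGTG at 210 to 205 bases before the start, found in 6.34% of windows, and an overlapping match on each strand at 142 to 135 bases, while CACGNG in any position was found in 26.7%. MLX also carried a CACGTG, at 50 to 45 bases before its start, shown in capitals within chr17:42567038-42567067 (plus strand).
MLX: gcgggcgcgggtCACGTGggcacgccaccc
CCAAT on either strand, searched as a common promoter element and present in 32% of windows, occurred 2 times before TXNIP and 3 times before ARRDC4. Neither CACGTG nor the paired form was found in the windows of ARRDC1, ARRDC2, ARRDC3, MLXIP and MLXIPL. CACGNG itself matched 3 times before ARRDC2 (chr19:18000874-18001123), as often as before ARRDC4. It matched 1 time before ARRDC3 (chr5:91380098-91380347), and 0 times in the other TXNIP window (chr1:145995745-145995994). Upstream windows were matched for 8 of the 9 genes, with 11 windows in all. Such matches describe letters in these windows and say nothing about binding in these cells.

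Across the arrays, the 2% trimmed mean was scaled to about 200.02 signal units on each array, and median signals ranged from 33.3 to 33.8 in high glucose and from 36.7 to 38.7 in low glucose. Across tested probe sets, r between replicates was 0.988 for high glucose, 0.985 for low glucose, and 0.925 to 0.928 between groups. Signals differed widely between the groups, with 50.4% of the 27307 tested probe sets past the threshold of an adjusted p of 0.05 (limma), 23.1% higher and 27.2% lower in high glucose. The share of higher probe sets among those calls was 45.9%, and 63.0% once arrays were centred on their medians. That step put the median over all tested probe sets at 0.11 log2 units, against -0.06 without it, so small differences have no settled direction. Control transcripts of bacterial origin with poly-A tails, spiked into the RNA and read by 24 probe sets, separated the groups in 24 of 24 cases, with high glucose above low glucose and a median difference of 1.94 log2 units (3.84-fold). Probe sets for ribosomal RNA were also higher in high glucose, with medians of 202 and 294 there against 67.4 and 76.3 in low glucose (3.31-fold), and 5 of 6 separated the groups. The 18 probe sets for hybridisation controls had a median difference of -0.34 log2 units, and 0 of them had both high glucose arrays above both low glucose arrays. Their median signals were 486 and 875 in high glucose, against 869 and 891 in low glucose, so high glucose replicate 1 stood apart. Of the HEK293 and kidney epithelial markers, the keratins KRT8 and KRT18 were higher on both high glucose arrays, at 5545 and 6493 against 2845 and 2897 in low glucose for KRT8, and at 8315 and 9775 against 4293 and 4309 for KRT18. The intermediate filament gene VIM was lower, at 5567 and 5971 in high glucose against 10580 and 11041 in low glucose. NEFL lay between 1179 and 1442, PAX2 between 34.6 and 54.6, and NEFM lay below the filter. The 3 leukocyte markers measured did not pass the filter, which asks for a mean log2 signal over the 4 arrays that corresponds to at least 32.9, although CD3E reached 40.2 on 1 low glucose array. Their summed signals were 53.4 and 17.4 in high glucose, against 16.5 and 54.6 in low glucose. Among endothelial markers 1 of 3 passed the filter, and among fibroblast markers 1 of 4, COL1A1, at 319 and 313 in high glucose against 228 and 204 in low glucose.

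TXNIP, which binds and inhibits thioredoxin and promotes removal of glucose transporters from the cell surface, was higher in high glucose in each of its 3 probe sets. Their suffix _s_at marks probe sets that can match several transcripts. Probe set 201010_s_at had signals of 252 and 216 in high glucose, against 41.9 and 39.3 in low glucose. Probe set 201008_s_at read 126 and 123 in high glucose, against 40.6 and 38.8 in low glucose. The brightest, 201009_s_at, stood at 251 and 247 in high glucose, against 127 and 97.6 in low glucose. No high glucose value of TXNIP overlapped a low glucose value, and the closest pair of arrays still differed 1.95-fold, in 201009_s_at. In bulk RNA, fewer cells expressing a gene and less of its RNA per cell cannot be told apart.

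The fitted TXNIP rise was 5.76-fold in 201010_s_at (2.53 ± 0.18 log2 units, SE, adjusted p = 5.0e-05), the 51st largest rise among the 27307 tested probe sets. It was 3.13-fold in 201008_s_at (1.65 ± 0.20, adjusted p = 5.6e-04) and 2.24-fold in 201009_s_at (1.16 ± 0.16, adjusted p = 8.2e-04). The probe sets thus shared the direction and differed in size, with 95% intervals of 2.10 to 2.95 log2 units for 201010_s_at and 0.80 to 1.53 for 201009_s_at. The difference between probe sets was not tested. In low glucose, 201010_s_at and 201008_s_at read 38.8 to 41.9, close to the filter signal of 32.9, so the sizes of their rises are imprecise. With 16 added to every signal their rises were 2.14 and 1.33 log2 units, both still past the test. A change larger in size than that of 201009_s_at was seen in 8.34% of tested probe sets, and larger than that of 201010_s_at in 0.538%. The poly-A spikes differed in the same direction by 1.94 log2 units, less than 201010_s_at and more than the other TXNIP probe sets. The ribosomal RNA probe sets differed 3.31-fold in that direction too, and the part of either in the result was not tested.

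**Figure D1:**
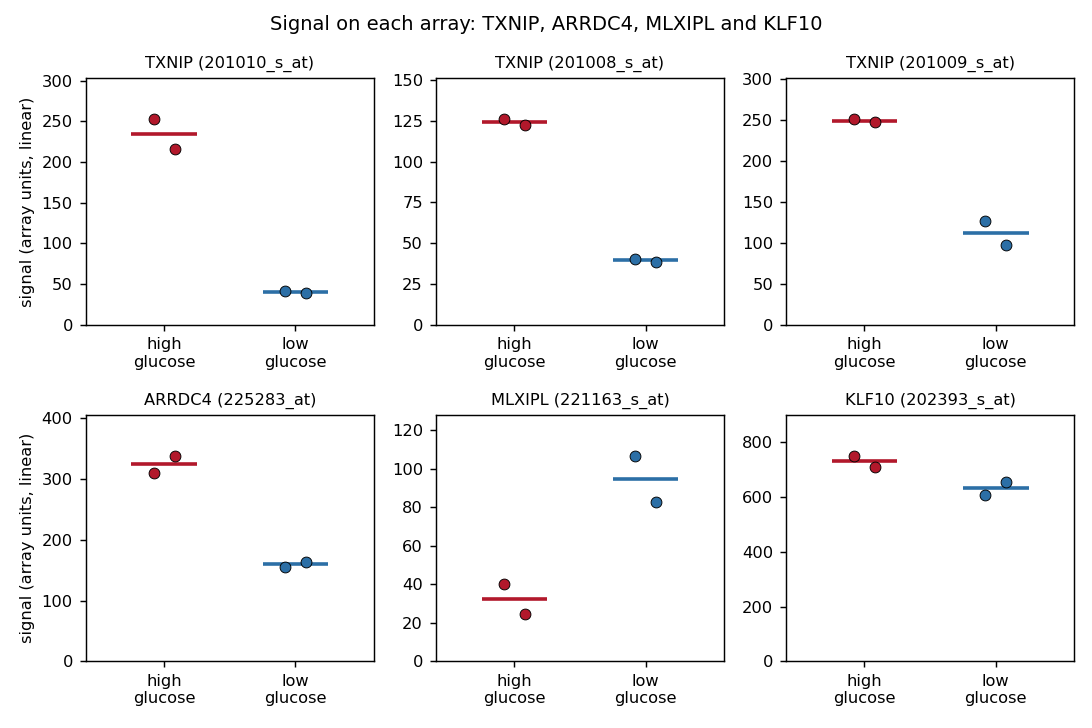
Linear signal (vertical axes, array units, starting at 0) of the TXNIP, ARRDC4, MLXIPL and KLF10 probe sets on each array, high glucose on the left and low glucose on the right of each panel. Points are single arrays and bars are the means of 2 arrays. TXNIP and ARRDC4 are higher on both high glucose arrays, MLXIPL is lower on both, and KLF10 differs by little.

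Among the other alpha-arrestins, ARRDC4, which like TXNIP acts on glucose transporters, rose in high glucose. Its single probe set, 225283_at, read 311 and 338 in high glucose, against 156 and 163 in low glucose. These values did not overlap, and the means were 324 ± 19 in high glucose and 160 ± 5.3 in low glucose (SD, n = 2 each). The rise was 2.03-fold (1.02 ± 0.11 log2 units, adjusted p = 2.5e-04). Relative to the median of all tested probe sets it was 1.08 log2 units, and 11.8% of probe sets changed by more in either direction. It was smaller than the median difference of the poly-A spikes, by 0.92 log2 units, and than that of the ribosomal RNA probe sets (3.31-fold), and the part of these in the result was not tested.

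ARRDC1, which recruits the budding machinery at the plasma membrane, read 858 and 877 in high glucose, against 819 and 925 in low glucose (226405_s_at). The groups overlapped, and the log2 difference of -0.01 had a 95% interval of -0.18 to 0.17. Its other probe set, 234607_at, was dim, at 5.34 and 8.53 in high glucose, against 17.5 and 10.3 under low glucose. ARRDC2 stood at 125 and 116 in high glucose, inside the low glucose values of 95.5 and 152 (226055_at). The interval for ARRDC2 was wider, from -0.55 to 0.54 log2 units around -0.01, which spans changes of up to 1.45-fold upward. ARRDC3, known for directing adrenergic receptors to degradation, gave 30.4 and 17.1 in high glucose, against 16.6 and 13.1 in low glucose, below the filter (224797_at). At such signals the arrays carry little information on ARRDC3, and the unfiltered fit gave an adjusted p of 0.52.

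Of the sensor genes, MLXIPL fell and MLXIP did not pass the test. MLXIPL, which encodes ChREBP, was lower in high glucose, at 40.3 and 24.7, against 106 and 82.4 in low glucose (221163_s_at). The groups did not overlap. The fitted difference was -1.57 ± 0.31 log2 units (95% interval -2.30 to -0.83, adjusted p = 0.0050), and the adjusted p was 0.010 in the fit with no filter. The high glucose mean of 32.5 lay just under the filter signal, so the probe set passed the filter through its low glucose values, and the size of the fall is imprecise. The poly-A spikes (1.94 log2 units) and the ribosomal RNA probe sets (3.31-fold) were higher in high glucose, and their part in the MLXIPL difference was not tested.

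MLXIP, which encodes MondoA, was measured by a pair of bright probe sets, and neither passed the test. Signals in 202519_at were 562 and 558 in high glucose, against 541 and 571 in low glucose. Those in 225157_at were 505 and 544 in high glucose, against 601 and 496 in low glucose. In both, the groups overlapped. The 95% intervals ran from -0.15 to 0.17 and from -0.30 to 0.18 log2 units. A rise of over 1.14-fold lies outside both, but this bound holds only for the deposited scaling. After median centring the differences were 0.18 ± 0.09 and 0.11 ± 0.10 log2 units (SE), and neither passed. The remaining MLXIP probe sets, 211789_s_at and 1554886_a_at, were below the filter, with signals from 7.78 to 35.7.

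MLX, the shared dimer partner, was read by 6 probe sets that did not move together. In 213708_s_at the signal was 815 and 751 in high glucose, against 561 and 692 in low glucose, a rise of 1.25-fold (0.33 ± 0.11 log2 units, adjusted p = 0.035). In 217909_s_at it was 529 and 669 in high glucose, against 710 and 690 in low glucose, a log2 difference of -0.23 ± 0.11 that did not pass (adjusted p = 0.11). Probe set 217910_x_at was nearly level, at 548 and 549 in high glucose, against 548 and 538 in low glucose. The dimmer probe sets 210752_s_at and 1570347_at stood at -0.12 and -0.23 log2 units and did not pass, and 231401_s_at was below the filter. The MLX rise in 213708_s_at did not pass without high glucose replicate 1 (adjusted p = 0.13) or without low glucose replicate 1 (adjusted p = 0.14), nor after quantile normalization (0.055), with no filter (0.069) or without an intensity trend (0.13). Without high glucose replicate 2, 217909_s_at was called lower (adjusted p = 0.0087). No single direction for MLX follows from these probe sets.

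KLF10, a zinc finger repressor that is a ChREBP target in mouse hepatocytes, read 749 and 710 in high glucose, against 608 and 656 in low glucose (202393_s_at). The groups did not overlap, and the rise was 1.15-fold (0.21 ± 0.07 log2 units, adjusted p = 0.044). The call was lost without high glucose replicate 1 (adjusted p = 0.19), without high glucose replicate 2 (0.070) and without low glucose replicate 1 (0.18). It was also lost after quantile normalization (0.081) and cyclic loess (0.051), with no filter (0.094), without an intensity trend (0.14) and with a replicate block (0.056). A change of larger size was seen in 73.1% of tested probe sets.

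**Figure D2:**
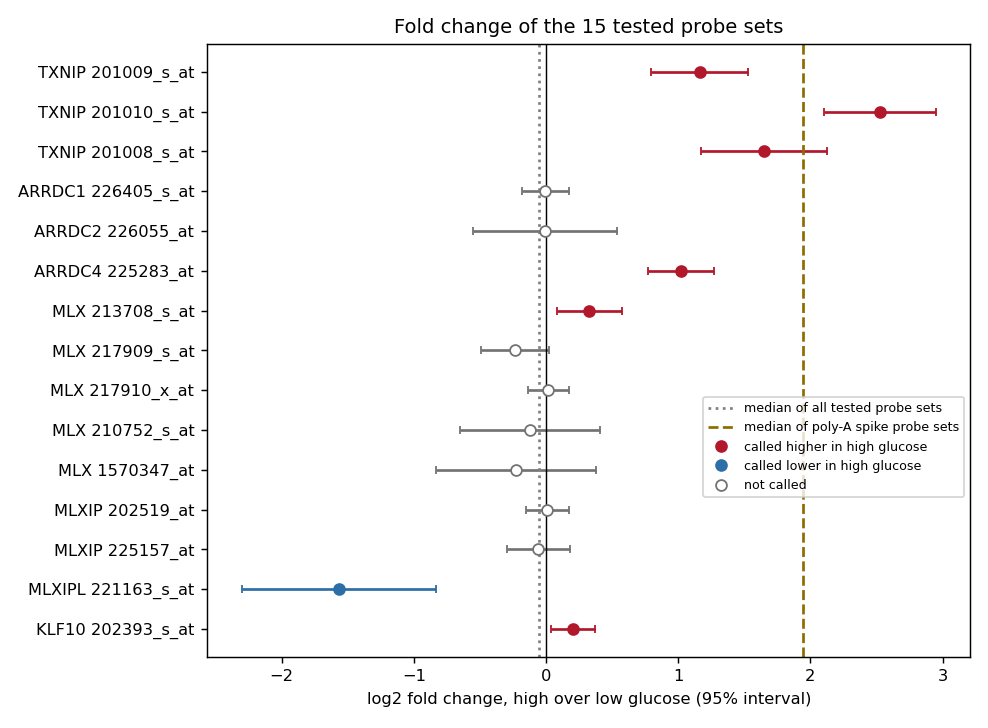
Log2 fold change, high over low glucose (horizontal axis), with its 95% interval for the 15 probe sets that passed the filter. Filled points passed the test and open points did not. The dotted line is the median of all tested probe sets (-0.06) and the dashed line the median of the poly-A spikes (1.94). The 3 TXNIP probe sets and ARRDC4 lie above 1, MLXIPL at -1.57, and the rest within 0.33 of 0.

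Counted together, 15 of the 20 probe sets passed the filter, 6 were higher, 1 (MLXIPL, which passed through its low glucose values) was lower and 8 were not called, so that 46.7% were called against 50.4% of all tested probe sets. Higher calls made up 40% of them, against 23.1% of all tested, and 3 of the 6 are TXNIP. By the brightest probe set of each gene, 5 of 8 genes were called, 4 higher and 1 lower, against 56.4% called among 12242 genes, 23.8% higher and 32.6% lower. Of the 4 higher genes, MLX and KLF10 lost their calls in several alternatives, quantile normalization among them, while TXNIP and ARRDC4 kept theirs. The median log2 fold change was 0.01 over the 15 probe sets and -0.06 over all tested. Arrays did not overlap between groups in 11 of the 15 (73.3%), against 76.8% of all tested probe sets. The shares of called and of non-overlapping probe sets are near the background, and nothing is read from them. The 5 probe sets below the filter had adjusted p-values from 0.42 to 0.98 in the unfiltered fit.

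**Figure D3:**
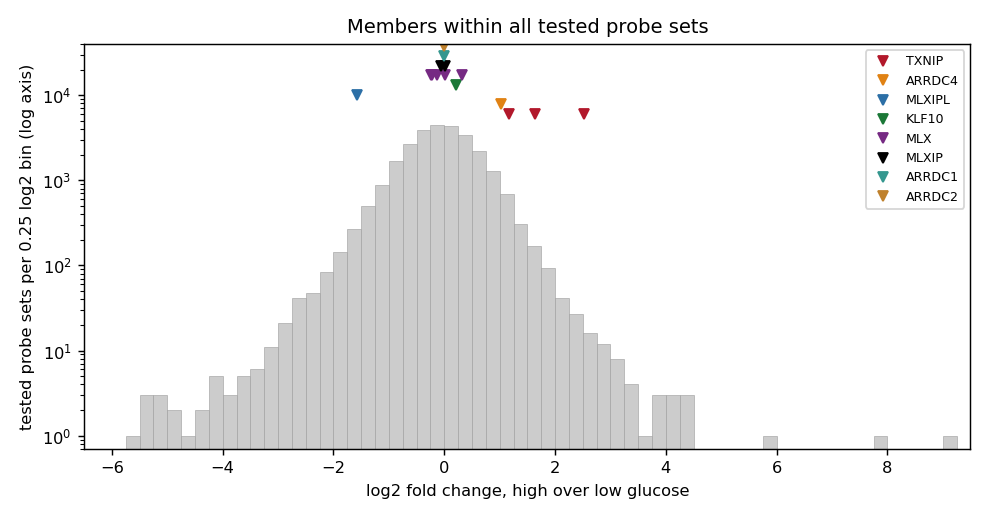
Number of tested probe sets per bin of 0.25 log2 units (vertical axis, log scale) by log2 fold change of high over low glucose (horizontal axis). Triangles above the bars mark the tested probe sets of each member, at heights that separate the genes and carry no value. The probe sets of TXNIP, ARRDC4 and MLXIPL lie away from the centre, and those of ARRDC1, ARRDC2, MLX, MLXIP and KLF10 within it.

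By centred log2 profile over the 4 arrays, the genes nearest to TXNIP (201009_s_at) were EGR1, PNO1, SPA17 and CPT2, at distances of 0.038 to 0.062 log2 units. EGR1 read 306 and 294 in high glucose, against 156 and 118 in low glucose. For ARRDC4 the nearest were HMGN5, NCEH1, LBH and SELENOH, at 0.042 to 0.055. LBH read 677 and 710 in high glucose, against 327 and 344 in low glucose. With 4 arrays in 2 groups such profiles are common: 90 genes lay within 0.25 log2 units of TXNIP and 392 within that distance of ARRDC4.

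The other known targets of MondoA and ChREBP did not follow TXNIP as a group. Of 13 tested, 4 were higher in high glucose, 7 were lower and 2 were not called, against 23.8% higher and 32.6% lower among all 12242 genes, and 5 more lay below the filter. The 13 had a median of -0.31 log2 units against -0.10 over all genes. RGS16, a regulator of G protein signalling, read 63.2 and 82.8 in high glucose, against 357 and 362 in low glucose, a fall of 4.97-fold (adjusted p = 4.5e-05). BHLHE40 and BHLHE41, repressors of the circadian clock, stood at -1.38 and -1.15 log2 units, both past the test. SCD, the stearoyl-CoA desaturase, fell 2.71-fold. The 4 higher genes, named after their values were seen, were PFKFB3 (0.84 log2 units), TKFC (0.73), ELOVL6 (0.60) and LDHA (0.46), and PFKFB3 did not pass without high glucose replicate 2 (adjusted p = 0.055). Of 2 tested TKFC probe sets the other stood at -0.35 log2 units and was not called, and 1 of 3 ELOVL6 probe sets was called higher. In its brightest probe set ACACA, acetyl-CoA carboxylase, fell by 0.57 log2 units, while another of its probe sets was called higher. The ACACA fall did not pass without an intensity trend. HK2, also 1 of the 7 lower genes, lost its call under each normalization between arrays, which left 6 lower. The poly-A spikes (1.94 log2 units) and ribosomal RNA probe sets (3.31-fold) differed in the direction of the rises.

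The other dimer partners of MLX that were measured, MXD1 and MNT, and also MAX, were lower in high glucose by their brightest probe sets. MXD4, also listed, had no probe set assigned to it alone. MXD1 read 147 and 138 in high glucose, against 264 and 268 in low glucose. MNT read 309 and 269 in high glucose, against 461 and 498 in low glucose. Both encode repressors that pair with MAX or MLX. Their falls were 1.86-fold and 1.66-fold (adjusted p = 5.8e-04 and 7.7e-04), and MAX fell 1.53-fold (adjusted p = 2.2e-04). Of 2 tested MXD1 probe sets the other stood at -0.27 log2 units and was not called. For MAX, 3 of 4 tested probe sets were called lower. All 3 measured genes of this list passed in each of the 13 alternatives tried. The list median was -0.73 log2 units, and 32.6% of all genes were called lower.

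Upstream of the sensors, SLC2A3, the glucose transporter GLUT3, rose 2.13-fold, with 2012 and 2180 in high glucose against 993 and 971 in low glucose (adjusted p = 2.4e-05). SLC2A1, the transporter GLUT1 that TXNIP is known to act on, did not pass, at 0.23 log2 units, and was called higher after median centring and without low glucose replicate 2. HK1 stood at -0.06 and did not pass. HK2, the inducible hexokinase, fell by 0.31 log2 units and passed narrowly (adjusted p = 0.047). The HK2 call was lost after quantile normalization, median centring and cyclic loess, and without high glucose replicate 1 or either low glucose array, and its adjusted p reached 0.32 over the alternatives. Of 4 tested genes in this list, 1 was higher, 1 lower and 2 not called, where 56.4% of all genes were called.

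Alpha-arrestins recruit ubiquitin ligases of the NEDD4 family through PPxY motifs. Of 9 ligases tested, 3 were higher, 1 lower and 5 not called, with a median of 0.07 log2 units, where 56.4% of all genes were called, 23.8% higher and 32.6% lower. WWP1 rose 2.27-fold, with both of its probe sets called higher, at 1248 and 1256 in high glucose against 552 and 552 in low glucose. SMURF2 rose 1.61-fold in its brightest probe set, while another of its 4 probe sets was called lower. ITCH rose 1.42-fold, a call lost without high glucose replicate 2 (adjusted p = 0.062), and NEDD4 fell 1.76-fold (adjusted p = 0.0016).

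In the thioredoxin system, to which TXNIP binds, 5 of 9 tested genes were higher, 1 lower and 3 not called (median 0.29 log2 units), where 23.8% of all genes were higher and 32.6% lower. TXNRD1, thioredoxin reductase, rose 1.86-fold, with 2547 and 2520 in high glucose against 1361 and 1357 in low glucose. PRDX3 rose 1.63-fold, TXN, thioredoxin itself, 1.44-fold and its mitochondrial form TXN2 1.37-fold. Of 2 tested PRDX3 probe sets the other stood at 0.14 log2 units and was not called. The TXN2 call was lost without an intensity trend. The lower gene was TXNRD2, named after its value was seen, and it was no longer called after quantile normalization or median centring, nor without high glucose replicate 2 or low glucose replicate 2. Over the alternatives the count of higher genes in this list ran between 3, without an intensity trend, and 7, after quantile normalization, both with 0 lower. The rises were smaller than the 3.84-fold spike difference and the 3.31-fold ribosomal RNA difference, which ran the same way and whose part was not tested. Among other arrestin-fold genes, 2 of 4 tested were lower and 0 higher by limma (0 higher at an unadjusted p under 0.05 as well), where 32.6% of all genes were lower and 23.8% higher, while VPS26C was called higher without high glucose replicate 1 (adjusted p = 0.047). By its brightest probe set ARRB1, a beta-arrestin, fell by 1.00 log2 units, within a range of -1.74 to 0.42 over 7 probe sets, and the VPS26B call was lost in 8 of 13 alternatives, among them without either high glucose array and without low glucose replicate 1.

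**Figure D4:**
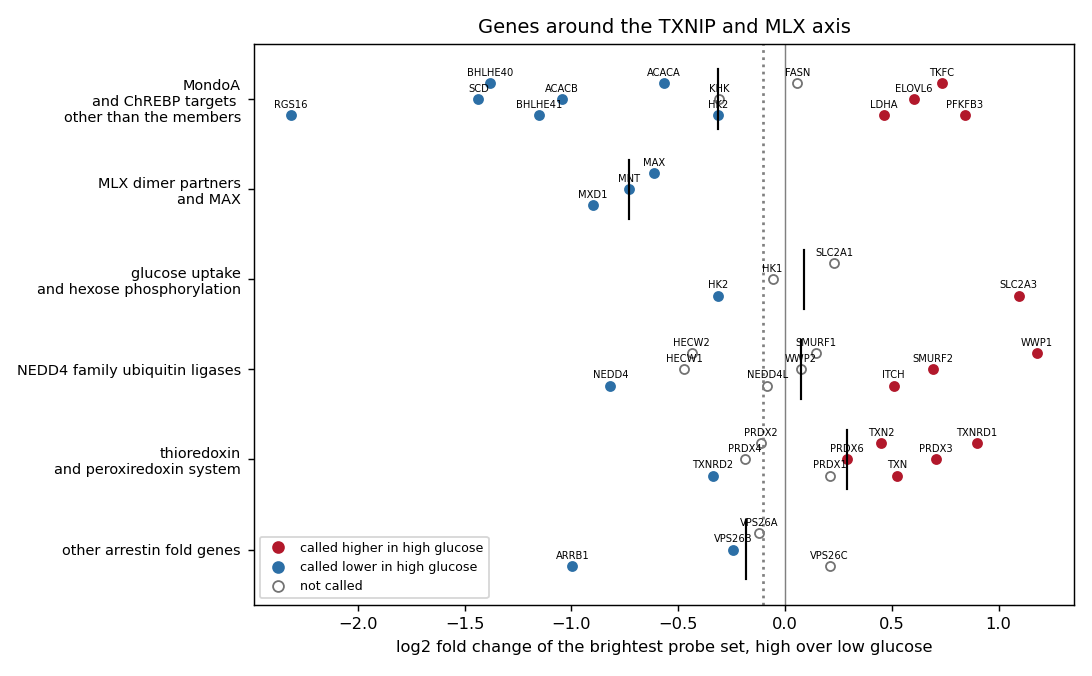
Log2 fold change of high over low glucose (horizontal axis) of the brightest probe set of each tested gene, by list. Filled points passed the test, open points did not, vertical bars are list medians and the dotted line is the median of all genes (-0.10). Points of a list are staggered for legibility. MondoA and ChREBP targets lie on both sides of 0, and the MLX partners with MAX lie below it.

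**Figure D5:**
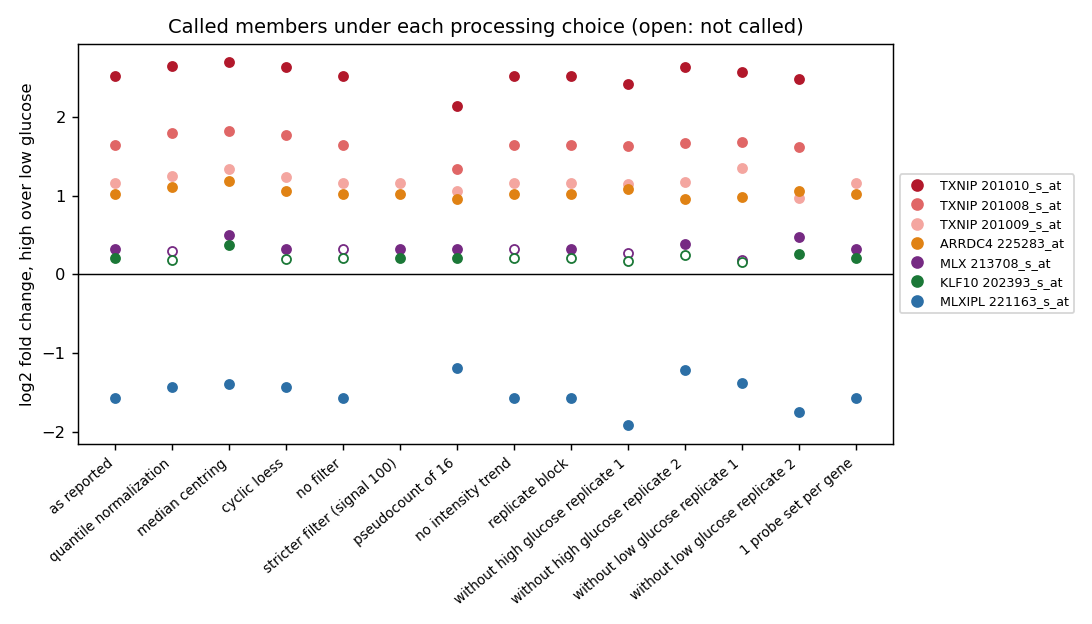
Log2 fold change of high over low glucose (vertical axis) of the called member probe sets under each processing choice (horizontal axis), with open points where the test was not passed. A missing point means that the probe set was not in that fit. TXNIP, ARRDC4 and MLXIPL are filled wherever they were tested, and the MLX probe set 213708_s_at and KLF10 are open in several fits.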

How the data were processed

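Single-colour Affymetrix arrays were hybridised with biotin-labelled cRNA from total RNA, per the labels' protocols. The authors deposited linear signal intensities, 1 per probe set and array, made with GCOS per the submitters' processing notes. Other steps: not given in the sources used here. These deposited intensities already shared a trimmed mean, so a change common to most transcripts cannot be seen. Detection calls were not used here, and the number of arrays limits the precision. Signals were log2-transformed without pseudocount. The 62 control probe sets were left out, and the 27307 probe sets whose mean log2 signal reached the median over probe sets (a signal of 32.9) were tested. The test of high against low glucose was limma 3.58.1, run in R 4.3.3 (lmFit, eBayes with an intensity trend, no covariate, two-sided, Benjamini-Hochberg adjusted over all tested probe sets), and the fit was tested on simulated data. GEO's platform annotation gave 1 gene for 41097 probe sets, several for 1801 and none for 11777. Of the 1-gene probe sets, 41043 were matched by gene ID in the RefSeq table, whose symbol was then used. Members were taken by the symbol in the platform annotation. Upstream sequences are RefSeq's, GRCh38.p14. The genes named were every member, up to 4 genes with the smallest p of each list, and the 4 nearest profiles to TXNIP and to ARRDC4; others are marked. Members and lists were chosen with earlier results of these data known.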

Additional observations from a re-analysis of the deposited data

How the results depend on the processing

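TXNIP, ARRDC4 and MLXIPL kept their direction and their call in every alternative that tested them: 3 normalizations, no filter, a stricter filter, a pseudocount of 16, no trend, a replicate block, each array left out and 1 probe set per gene. MLXIPL passed the filter through its low glucose values. The stricter filter, at a signal of 100, removed MLXIPL and 2 TXNIP probe sets. Log2 fold changes ranged from 0.97 to 1.35 for TXNIP 201009_s_at, 2.14 to 2.70 for 201010_s_at, 1.33 to 1.82 for 201008_s_at, 0.95 to 1.19 for ARRDC4 and -1.92 to -1.20 for MLXIPL. Higher calls among the members numbered 4 to 6, and calls over all list genes 11 to 16 higher and 11 to 14 lower. Lower calls among the member probe sets fell to 0 with the stricter filter, because MLXIPL was no longer tested, and varied when arrays were left out. With 1 probe set per gene, 2970 were higher and 4079 lower, since fewer features were tested. Same-numbered arrays did not deviate together (r = 0.0077), and the replicate block gave 5 higher and 1 lower member probe sets, and 6335 higher and 7507 lower in all. Signals near the filter limit ARRDC3, MLXIPL, the low glucose values of TXNIP 201010_s_at and 201008_s_at, and the dim MLX and MLXIP probe sets.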

Other observations

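The paired form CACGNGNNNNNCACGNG, found before TXNIP, marked 16 genes, a list formed after the data had been seen. Of these, 14 were tested by their brightest probe set, with 2 higher in high glucose (TXNIP and ATP5ME), 5 lower and 7 not called. GFPT1, the entry enzyme of the hexosamine pathway, was among the lower ones, at 516 and 486 in high glucose against 706 and 745 in low glucose (log2 fold change -0.53, adjusted p = 7.6e-04). P4HA1, a collagen prolyl hydroxylase subunit, was at 459 and 466 in high glucose against 720 and 721 in low glucose. STX12 and MYL5 were also called lower, and so was POM121L12, which passed the filter only through low glucose, at 14.4 and 16.9 in high glucose against 93.5 and 67.8 in low glucose. Among all genes, 23.8% were called higher and 32.6% lower.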
